A study of Mus musculus with 12 samples.

Results

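The genes described here are 10 known markers of injured or failed-repair proximal tubule: Havcr1, Lcn2, Clu, Spp1, Vcam1, Cp, Tnfrsf12a, Myof, Cd44 and Itgb6. They were chosen by name, as 10 of the 55487 genes in a table of read counts from mouse kidney cortex, and all 10 had enough counts to be tested in every comparison. RNA-seq was run on 12 libraries in 4 groups of 3. All mice were of C57BL/6 background and 6 to 8 weeks old. Control mice, whose genotype is given as WT in the sample labels and as ALR flox/flox in the description of the study, were sham treated (Ctrl) or underwent bilateral renal ischemia for 22 min with 24 h of reperfusion (Ctrl+I/R). Mice lacking ALR (augmenter of liver regeneration, the product of Gfer) in cells that express a Ggt1-Cre transgene, which acts in the proximal tubule, were treated in the same 2 ways (PT-KO and PT-KO+I/R). The labels call this genotype ALR knockdown.

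The proximal tubule reabsorbs most of what the glomerulus filters and is the segment most easily damaged when blood flow stops. Surviving cells lose their transport functions, take on a repair state and display or release a typical set of proteins, some of which are measured in urine as signs of acute kidney injury. Cells that do not complete repair keep part of this set, Vcam1 among it, and are then called failed-repair cells. Several of these genes are also expressed elsewhere: Vcam1 and Cd44 in vessels, stroma and leukocytes, Lcn2 in neutrophils and in distal nephron, and Spp1 and Clu in other tubule segments. The counts are from bulk tissue, so the cell in which a transcript was made was not measured, and more or fewer cells of a type cannot be told apart from more or less RNA per cell.

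Totals ran from 12165089 to 23123693 counts per library. Levels are given as CPM, the counts of a gene relative to the total of its library, scaled by TMM over all 12 libraries to even out differences in composition. Differences are log2 fold changes with their standard error (SE) from edgeR, fitted to the 6 libraries compared. A gene counts as called where its p, adjusted by Benjamini-Hochberg over all genes tested, is under 0.05. Gfer itself was at 11.4 to 14.4 CPM in Ctrl, 9.96 to 17.1 in PT-KO, 15.3 to 19.98 in Ctrl+I/R and 21.6 to 22.8 in PT-KO+I/R. It was thus not lower in the libraries labelled as knockout, although only part of the gene is floxed and the counts cover the whole gene, so this does not check the deletion. Ctrl replicates 1 and 2 held 22402 and 19755 counts of Xist, which is transcribed in females, against at most 11 in each of the other 10 libraries, so sex differed within Ctrl and between Ctrl and every other group. Mature proximal tubule genes were abundant, at a sum of 30567 to 36948 CPM over 20 genes in Ctrl.

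For each of 4 members 1 start site is shown. Havcr1, Lcn2 and Tnfrsf12a were higher after I/R in PT-KO mice than in control mice. Cp, which was not called between the genotypes, is the other member with a window that held a motif searched. For Havcr1 the window shown was picked because it held a match. The RefSeq windows (GRCm38.p6, 250 bases before to 50 after a start site) cover 8 of the 10 members with 13 windows, and Clu and Vcam1 have none in the table. Each window was searched on both strands for TGANTCA (AP-1), TTCNNNGAA (STAT), CATTCC (TEAD) and the kappaB consensus. The sequences run 5′ to 3′ on the strand of the gene, from 250 bases before to 20 bases after the start site, and capitals mark motif matches.
Havcr1, chr11:46750918-46751187, plus strand: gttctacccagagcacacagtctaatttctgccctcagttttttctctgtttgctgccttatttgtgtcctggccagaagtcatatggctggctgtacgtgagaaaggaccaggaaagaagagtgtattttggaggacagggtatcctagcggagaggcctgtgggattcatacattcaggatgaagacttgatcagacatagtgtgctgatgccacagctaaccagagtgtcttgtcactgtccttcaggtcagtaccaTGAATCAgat
Lcn2, chr2:32387720-32387989, minus strand: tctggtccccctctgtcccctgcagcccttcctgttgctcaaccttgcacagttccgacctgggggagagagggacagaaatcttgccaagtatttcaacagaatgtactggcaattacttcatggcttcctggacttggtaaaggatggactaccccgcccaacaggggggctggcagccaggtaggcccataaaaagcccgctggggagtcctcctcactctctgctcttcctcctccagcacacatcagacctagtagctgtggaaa
Tnfrsf12a, chr17:23677430-23677699, minus strand: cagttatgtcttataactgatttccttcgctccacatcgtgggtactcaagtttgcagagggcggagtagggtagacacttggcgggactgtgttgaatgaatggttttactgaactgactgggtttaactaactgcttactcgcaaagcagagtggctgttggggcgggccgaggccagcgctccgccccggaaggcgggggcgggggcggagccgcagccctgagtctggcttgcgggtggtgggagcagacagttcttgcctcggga
Cp, chr3:19956804-19957073, plus strand: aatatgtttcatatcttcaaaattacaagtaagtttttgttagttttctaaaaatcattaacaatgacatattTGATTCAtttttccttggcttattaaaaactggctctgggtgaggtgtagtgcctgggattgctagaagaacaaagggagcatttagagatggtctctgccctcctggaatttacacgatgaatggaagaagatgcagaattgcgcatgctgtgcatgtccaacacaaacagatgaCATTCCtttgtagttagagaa
Among all 13 windows, an AP-1 match was in this window of Havcr1, starting at base 11 of the transcript, and in this window of Cp, at position -177 from the start site. A TEAD match starts at position -1 of the same Cp window and lies at -196 of a second, overlapping Cp window. No STAT or kappaB match was found in any member's window. The Havcr1 windows that begin at 46739973 and 46750261 are not shown and held no match of any motif searched. The Havcr1 window shown begins at 46750918, inside the annotated gene, which starts at 46735080. Of all 32851 windows in the table, 7.81% held an AP-1 match, 8.30% a STAT match, 8.46% a kappaB match and 14.7% a TEAD match. These matches are letters in a window, and whether a factor binds there was not measured.

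**Figure D1:**
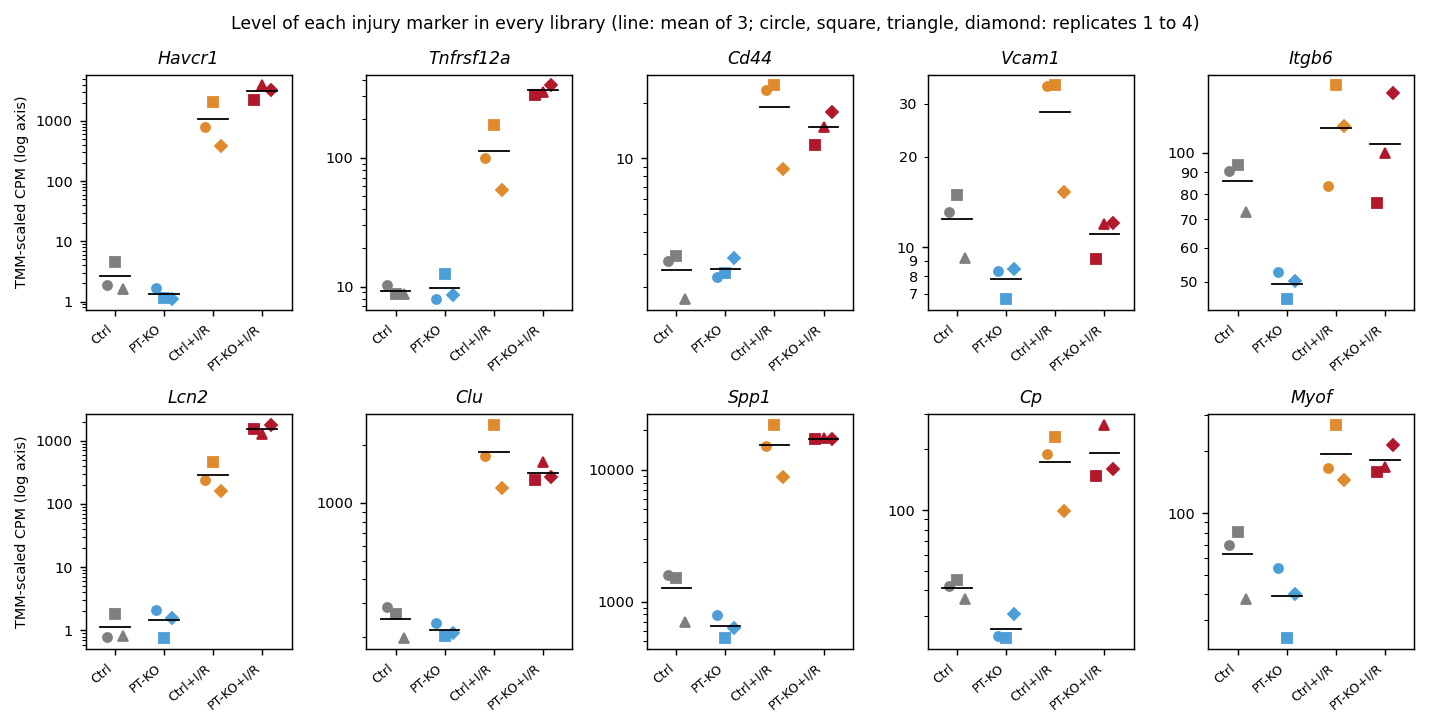
Level of each of the 10 markers in every library, as TMM-scaled CPM on a log axis that differs between panels, with a line at the mean of the 3 libraries of a group and symbols for the replicate numbers. Havcr1 and Lcn2 go from below 5 CPM in the groups without I/R to between 161 and 3929 CPM after it, while Vcam1 in PT-KO+I/R (9.14 to 11.98 CPM) lies in the range of the groups without I/R.

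Without injury the members covered a wide range. Per kilobase of merged exons, Spp1 had the highest mean in Ctrl, 768 CPM per kb, followed by Clu with 72.6, Itgb6 with 12.1, Myof with 4.996, Tnfrsf12a with 4.78, Cp with 4.30, Vcam1 with 1.40, Havcr1 with 1.17, Lcn2 with 0.440 and Cd44 with 0.364 CPM per kb. Spp1 thus stood far above the rest in uninjured kidney, and the values of Myof, Tnfrsf12a and Cp overlapped between libraries. After I/R the order was another one. In PT-KO+I/R, Spp1 was still first with 10426 CPM per kb, and Havcr1 (1358), Lcn2 (588) and Clu (419) followed, while Vcam1 was last with 1.24 CPM per kb. The 10 genes took 0.101 to 0.221% of all counts in Ctrl, 0.0754 to 0.113% in PT-KO, 1.20 to 3.17% in Ctrl+I/R and 2.20 to 2.45% in PT-KO+I/R. Spp1 alone made up 62.2 to 81.7% of the members' counts in a library.

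In control mice, 9 of the 10 members rose after I/R, and the remaining one, Itgb6, had a log2 fold change of 0.42 (SE 0.20, edgeR adjusted p = 0.159). Of all 15567 genes tested in this comparison, 11.4% were called higher. The members' median log2 fold change was 2.92, against -0.01 over all genes tested. In PT-KO mice all 10 members rose, where 32.9% of the 15155 genes tested were called higher, with a median of 2.80 against 0.01 over all genes. All 9 members called in control mice had 3 Ctrl+I/R libraries above the 3 Ctrl libraries, as had 21.4% of the genes tested, and all 10 had 3 PT-KO+I/R libraries above the 3 PT-KO libraries, as had 35.9%. Exact two-sided permutation tests of 3 against 3 libraries gave 0.1 for each of these, the smallest p that such a design allows. In a fit of all 12 libraries with Xist as a covariate, in which Ctrl replicate 3 alone stands for Ctrl without that transcript, the same number of members, 9, was called in control mice, with 6.59% of all genes called higher.

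Between the genotypes after I/R, Lcn2, Tnfrsf12a and Havcr1 were higher and Vcam1 was lower in PT-KO+I/R, and 6 members were not called. Of the 15281 genes tested, 22.5% were called higher and 24.4% lower, so that 4 of 10 members lies near the 46.9% called in either direction. In each of the 4 the libraries of the 2 genotypes did not overlap, as was so, in the same direction, for 29.5% (higher) and 29.2% (lower) of the genes tested. The members' median log2 fold change was 0.02, against -0.00 over all genes. Without I/R, no member was called between PT-KO and Ctrl, where edgeR called 0% of the 15291 genes tested. At an unadjusted p under 0.05, 4 members (Spp1, Vcam1, Cp and Itgb6) were lower in PT-KO, beside 9.31% of all genes, with 2573 genes in either direction, and DESeq2 called 2 of them, Cp and Itgb6, with 1.71% of all genes called lower. For Vcam1, Cp and Itgb6 all 3 PT-KO libraries were below all 3 Ctrl libraries, as were those of 11.2% of the genes tested. Left out of the fit, Ctrl replicate 3, the Ctrl library without Xist, changed this count to 6 members called lower, and the share of all genes called lower to 5.38%. That fit sets 2 Ctrl libraries with Xist against 3 PT-KO libraries without it, so that sex and genotype cannot be told apart. With the Xist covariate in a fit of all 12 libraries, 0 members and 0% of all genes were called, and the differences were -0.10 for Spp1, -0.23 for Vcam1, -0.49 for Cp and -0.56 for Itgb6.

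The surface proteins come first. Havcr1 (ENSMUSG00000040405, chromosome 11, 46735080 to 46779578, plus strand, GRCm38) encodes KIM-1, a receptor for phosphatidylserine with which injured tubule cells take up dead neighbours. It had 1.91, 4.58 and 1.61 CPM in the Ctrl libraries and 1.70, 1.13 and 1.10 CPM in PT-KO. After I/R the Ctrl+I/R libraries had 785, 2105 and 381 CPM, and the PT-KO+I/R libraries 2257, 3929 and 3226 CPM. The lowest PT-KO+I/R library thus lay just above the highest Ctrl+I/R library, and the 2 groups without I/R overlapped. Havcr1 rose by a log2 fold change of 8.67 in control mice (SE 0.86, edgeR adjusted p = 0.0029), the 4th largest of all genes tested, and by 11.22 in PT-KO mice (SE 0.30, edgeR adjusted p = 2.1e-08), the 5th largest.

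After I/R, the difference in Havcr1 between PT-KO and control mice was 1.53 (SE 0.55, edgeR adjusted p = 0.0494), and it depended on single libraries. The call was lost without Ctrl+I/R replicate 1 (1.33), without Ctrl+I/R replicate 4 (1.11) and without PT-KO+I/R replicate 2 (1.73), 3 (1.35) or 4 (1.52). Without Ctrl+I/R replicate 2, the Ctrl+I/R library with the most Havcr1, the difference was 2.41 with an edgeR adjusted p = 0.0012. DESeq2 gave 1.53 with an adjusted p = 0.0832, and total counts in place of TMM gave 1.30 with an edgeR adjusted p = 0.0843. With the replicate number as a block it was 1.59 with an edgeR adjusted p = 0.2001.

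Tnfrsf12a (ENSMUSG00000023905, chromosome 17, 23675445 to 23677468, minus strand) encodes Fn14, the receptor of the cytokine TWEAK. Its levels were 10.2, 8.79 and 8.69 CPM in Ctrl and 8.01, 12.6 and 8.52 CPM in PT-KO. They were 99.3, 180 and 55.7 CPM in Ctrl+I/R and 308, 325 and 365 CPM in PT-KO+I/R. Every PT-KO+I/R library was above every Ctrl+I/R library, and replicates differed more within Ctrl+I/R, where the highest library was 3.23 times the lowest, than within PT-KO+I/R, where it was 1.18 times the lowest. The rise after I/R was 3.595 in control mice (SE 0.41, edgeR adjusted p = 0.0044) and 5.09 in PT-KO mice (SE 0.17, edgeR adjusted p = 3.2e-08). After I/R the genotypes differed by 1.57 (SE 0.36, edgeR adjusted p = 0.0088), a call kept in all 6 fits without 1 library, between 1.24 and 2.08, but not with the replicate block (1.74, edgeR adjusted p = 0.0608). Tnfsf12, which encodes TWEAK, rose in PT-KO mice (1.21, SE 0.21, edgeR adjusted p = 6.3e-04), and in control mice it had 0.51 (SE 0.31, edgeR adjusted p = 0.266).

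Cd44 (ENSMUSG00000005087, chromosome 2, 102811141 to 102901665, minus strand) encodes the main hyaluronan receptor, which also binds osteopontin, the product of Spp1. It was at 2.76, 2.93 and 1.72 CPM in Ctrl, and at 2.27, 2.37 and 2.88 CPM in PT-KO. After I/R it was at 23.5, 25.0 and 8.78 CPM in Ctrl+I/R and at 11.8, 14.8 and 18.0 CPM in PT-KO+I/R. Both groups after I/R were clear of both groups without it, and the genotypes overlapped. Cd44 rose by 2.96 in control mice (SE 0.43, edgeR adjusted p = 0.0091) and by 2.56 in PT-KO mice (SE 0.21, edgeR adjusted p = 3.4e-06). The difference between genotypes after I/R was -0.37 (SE 0.36, edgeR adjusted p = 0.424). It was called lower, at -0.71 with an edgeR adjusted p = 0.0182, when Ctrl+I/R replicate 4 was left out.

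Vcam1 (ENSMUSG00000027962, chromosome 3, 116109949 to 116129688, minus strand) encodes an adhesion protein that binds integrin alpha4 beta1 on leukocytes. It was at 13.0, 15.0 and 9.19 CPM in Ctrl and at 8.32, 6.72 and 8.46 CPM in PT-KO. Levels were 34.3, 34.5 and 15.3 CPM in Ctrl+I/R against 9.14, 11.96 and 11.98 CPM in PT-KO+I/R. PT-KO+I/R overlapped Ctrl without I/R and lay wholly below Ctrl+I/R, an order of groups that no other member had. Vcam1 rose by 1.19 in control mice (SE 0.32, edgeR adjusted p = 0.0429) and by 0.49 in PT-KO mice (SE 0.17, edgeR adjusted p = 0.0275). The first call was lost without Ctrl replicate 1 (1.23), 2 (1.35) or 3 (1.02) and without Ctrl+I/R replicate 1 (1.01) or 2 (1.04). The second was lost without PT-KO replicate 2 (0.39) and without PT-KO+I/R replicate 3 (0.44) or 4 (0.44), with DESeq2 (adjusted p = 0.0634), and in the edgeR fits of all 12 libraries (adjusted p = 0.146), of all 12 with the Xist covariate (adjusted p = 0.126) and with the replicate block (adjusted p = 0.0828). After I/R, Vcam1 was lower in PT-KO+I/R, with a log2 fold change of -1.35 (SE 0.30, edgeR adjusted p = 0.0081), a call kept in all 6 fits without 1 library, between -1.65 and -1.18. It was not called with the replicate block (-1.13, edgeR adjusted p = 0.110), where 6.53% of all genes were called lower.

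Markers of other cells that express Vcam1 moved between the same groups. The summed level of 10 macrophage genes was 104 to 129 CPM in Ctrl, 107 to 115 in PT-KO, 173 to 299 in Ctrl+I/R and 64.9 to 72.7 in PT-KO+I/R, and 9 of the 10 were called lower and 1 higher in PT-KO+I/R. Among them, Adgre1, which encodes the macrophage protein F4/80, went from 7.97 ± 2.08 CPM in Ctrl+I/R to 0.383 ± 0.168 CPM in PT-KO+I/R (SD, n = 3). For 6 stromal genes the sum was 663 to 787 CPM in Ctrl+I/R and 179 to 302 CPM in PT-KO+I/R, with 3 called lower. For 8 endothelial genes it was 422 to 462 and 497 to 539 CPM, with 4 called higher and 2 lower. Within PT-KO mice, where Vcam1 rose after I/R, 1 macrophage gene was called higher and 7 lower, 3 stromal genes higher and 0 lower, and 4 endothelial genes higher and 2 lower. Of all genes tested, 22.5% were called higher and 24.4% lower between the genotypes after I/R, and 32.9% and 32.7% after I/R within PT-KO mice, so that several of these counts lie near the background. Itga4, the alpha chain of the leukocyte receptor of Vcam1, was lower in PT-KO+I/R, with a log2 fold change of -2.22 (SE 0.39, edgeR adjusted p = 0.0031). The part of these cells in the result for Vcam1 was not tested.

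**Figure D2:**
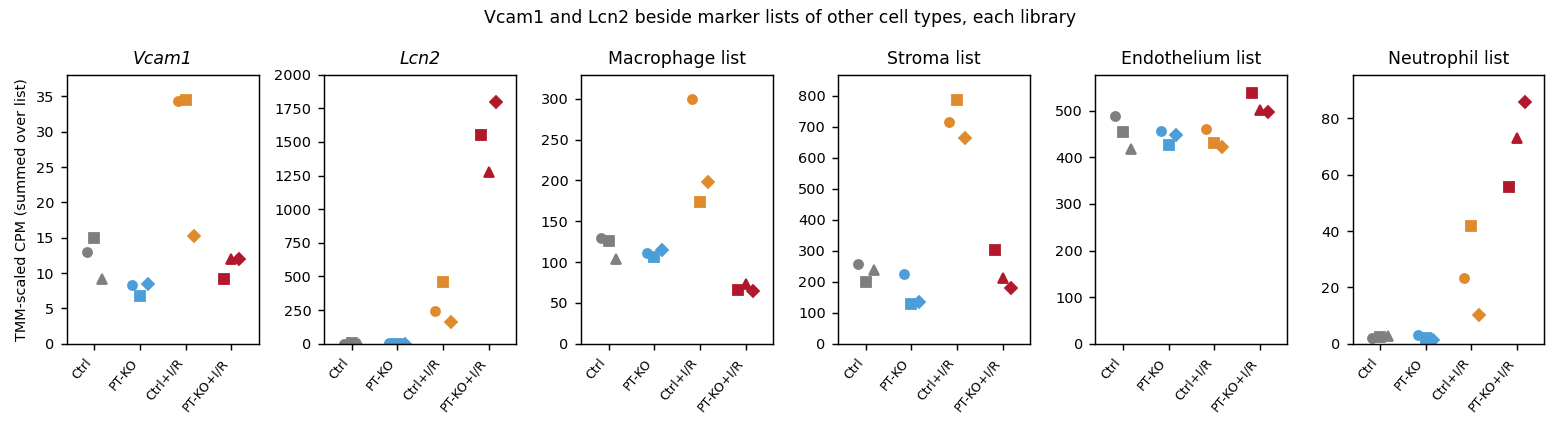
Vcam1, Lcn2 and the summed levels of 4 marker lists in every library, as TMM-scaled CPM on linear axes from 0, with symbols for the replicate numbers. In PT-KO+I/R the macrophage sum (64.9 to 72.7 CPM) and the stroma sum (179 to 302 CPM) lie below Ctrl+I/R as Vcam1 does, and the neutrophil sum (55.7 to 85.9 CPM) lies above it as Lcn2 does. The endothelium sum (497 to 539 CPM) lies above Ctrl+I/R (422 to 462 CPM), the other way from Vcam1.

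Itgb6 (ENSMUSG00000026971, chromosome 2, 60598292 to 60722643, minus strand) encodes the beta chain of integrin alphav beta6, an epithelial integrin that activates latent TGF-beta. It was at 90.8, 93.5 and 72.9 CPM in Ctrl, at 52.8, 45.6 and 50.1 CPM in PT-KO, at 83.8, 144 and 116 CPM in Ctrl+I/R and at 76.3, 99.9 and 138 CPM in PT-KO+I/R. The PT-KO libraries were below all other libraries, and the remaining groups overlapped. Itgb6 rose in PT-KO mice by 1.08 (SE 0.18, edgeR adjusted p = 5.1e-04). Without I/R the difference between PT-KO and Ctrl was -0.80 (SE 0.12), which missed the threshold with edgeR (adjusted p = 0.153) and passed it with DESeq2 (-0.78, adjusted p = 7.4e-06). After I/R the genotypes differed by -0.13 (SE 0.25, edgeR adjusted p = 0.693).

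The secreted products follow. Lcn2 (ENSMUSG00000026822, chromosome 2, 32384633 to 32388252, minus strand) encodes NGAL, which binds iron-carrying siderophores and is measured in urine in acute kidney injury. Ctrl libraries had 0.802, 1.83 and 0.831 CPM and PT-KO libraries 2.08, 0.753 and 1.59 CPM. After I/R, Lcn2 was at 241, 456 and 161 CPM in Ctrl+I/R and at 1548, 1279 and 1798 CPM in PT-KO+I/R. The 2 groups after I/R were far apart, with the lowest PT-KO+I/R library above the highest Ctrl+I/R library, and the 2 groups without I/R overlapped. The rise was 7.97 in control mice (SE 0.55, edgeR adjusted p = 0.0023) and 10.04 in PT-KO mice (SE 0.29, edgeR adjusted p = 2.3e-08). Between the genotypes after I/R, Lcn2 differed by 2.43 (SE 0.36, edgeR adjusted p = 0.0015), with PT-KO+I/R the higher group. This was the largest difference among the members, and in the 6 fits without 1 library this was between 2.14 and 2.92 and called each time.

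Neutrophils also hold Lcn2, and 10 neutrophil genes summed to 2.01 to 2.60 CPM in Ctrl, 1.23 to 3.09 in PT-KO, 10.3 to 41.8 in Ctrl+I/R and 55.7 to 85.9 CPM in PT-KO+I/R. Of the 6 with enough counts to be tested after I/R, 4 were higher in PT-KO+I/R, beside 22.5% of all genes, and 0 were lower. The low-count filter sets which genes enter this tally, and it left out Ltf, which had the lower mean in PT-KO+I/R. S100a9 was at 9.58 ± 5.57 CPM in Ctrl+I/R and 30.6 ± 8.12 CPM in PT-KO+I/R (SD, n = 3). Of the granule genes, which mature neutrophils transcribe little, Mpo and Camp were at 0 in all Ctrl+I/R libraries and had at most 2 and 1 counts in a PT-KO+I/R library. Ltf was at 0.336 ± 0.118 CPM in Ctrl+I/R and 0.0363 ± 0.0330 CPM in PT-KO+I/R. Ngp, also a granule gene, was at 0.174 ± 0.179 CPM in Ctrl+I/R and 2.13 ± 0.998 CPM in PT-KO+I/R (SD, n = 3). It was called higher by 3.68 (SE 0.68, edgeR adjusted p = 0.0038) and is 1 of the 4. With at most 6 counts in a Ctrl+I/R library, it passed the filter only through PT-KO+I/R, so its call is no separate support. Marker sums of distal nephron, which also expresses Lcn2, overlapped between the genotypes after I/R. For 6 genes of loop and distal tubule they were 1673 to 4500 CPM in Ctrl+I/R and 2257 to 2747 CPM in PT-KO+I/R. For 7 collecting duct genes they were 130 to 368 and 147 to 217 CPM. Only 2 of the 6 and 1 of the 7 were called, each in the direction opposite to Lcn2. The part of neutrophils or of distal nephron in the result for Lcn2 was not tested.

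Spp1 (ENSMUSG00000029304, chromosome 5, 104435118 to 104441050, plus strand) encodes osteopontin, a matrix protein and cytokine bound by integrins and CD44. Its levels were 1601, 1503 and 695 CPM in Ctrl and 786, 526 and 632 CPM in PT-KO. They were 15074, 22036 and 8804 CPM in Ctrl+I/R and 17019, 17482 and 17044 CPM in PT-KO+I/R. The PT-KO+I/R libraries were within 1.03 times of each other, and all 3 lay inside the range of Ctrl+I/R, which spanned 2.50 times. Spp1 rose by 3.599 in control mice (SE 0.48, edgeR adjusted p = 0.0075) and by 4.72 in PT-KO mice (SE 0.17, edgeR adjusted p = 3.8e-08). The genotypes differed after I/R by 0.17 (SE 0.31, edgeR adjusted p = 0.685). An annotated transcript of unknown function, Gm42793, shares 309 exonic bases with Spp1 on the same strand and had at most 21.8 CPM.

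Clu (ENSMUSG00000022037, chromosome 14, 65968483 to 65981547, plus strand) encodes clusterin, a secreted chaperone. It was at 287, 264 and 197 CPM in Ctrl, at 238, 203 and 211 CPM in PT-KO, at 1755, 2560 and 1203 CPM in Ctrl+I/R and at 1321, 1636 and 1361 CPM in PT-KO+I/R. Groups with and without I/R were well apart, and the genotypes overlapped in both. Clu rose by 2.89 in control mice (SE 0.31, edgeR adjusted p = 0.0039) and by 2.72 in PT-KO mice (SE 0.12, edgeR adjusted p = 8.5e-08). The difference after I/R was -0.36 (SE 0.26, edgeR adjusted p = 0.281), and without Ctrl+I/R replicate 4 it was called lower at -0.59 (edgeR adjusted p = 0.0450).

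Cp (ENSMUSG00000003617, chromosome 3, 19957054 to 20009145, plus strand) encodes ceruloplasmin, the copper ferroxidase that loads iron onto transferrin. It was at 42.1, 44.9 and 36.4 CPM in Ctrl and at 23.9, 23.2 and 30.6 CPM in PT-KO. After I/R it was at 190, 229 and 98.6 CPM in Ctrl+I/R and at 147, 266 and 160 CPM in PT-KO+I/R. The PT-KO libraries were all below the Ctrl libraries, and the genotypes overlapped after I/R. Cp rose by 2.07 in control mice (SE 0.29, edgeR adjusted p = 0.0085) and by 2.88 in PT-KO mice (SE 0.22, edgeR adjusted p = 2.5e-06). The difference without I/R was -0.67 (SE 0.13), with an adjusted p = 0.183 by edgeR and 0.0045 by DESeq2. After I/R it was 0.14 (SE 0.32, edgeR adjusted p = 0.740). Exons of Hps3 on the opposite strand overlap Cp by 108 bases, and reads there cannot be assigned without strand. Hps3 as a whole gene had up to 66.1 CPM.

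Myof (ENSMUSG00000048612, chromosome 19, 37899036 to 38043577, minus strand) encodes myoferlin, a relative of dysferlin that acts in the repair and fusion of membranes. Its levels were 69.9, 81.0 and 38.0 CPM in Ctrl, 53.7, 24.4 and 40.1 CPM in PT-KO, 167, 271 and 144 CPM in Ctrl+I/R and 159, 168 and 215 CPM in PT-KO+I/R. All libraries after I/R were above all libraries without it. Myof rose by 1.63 in control mice (SE 0.32, edgeR adjusted p = 0.0201), a call lost without Ctrl replicate 1 (1.71), Ctrl replicate 2 (1.86) or Ctrl+I/R replicate 1 (1.72). In PT-KO mice it rose by 2.20 (SE 0.24, edgeR adjusted p = 2.9e-05), and after I/R the genotypes differed by -0.10 (SE 0.23, edgeR adjusted p = 0.743). Dysf, which encodes dysferlin, rose by 1.39 in control mice (SE 0.22, edgeR adjusted p = 0.0115) and by 1.80 in PT-KO mice (SE 0.13, edgeR adjusted p = 1.3e-06).

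**Figure D3:**
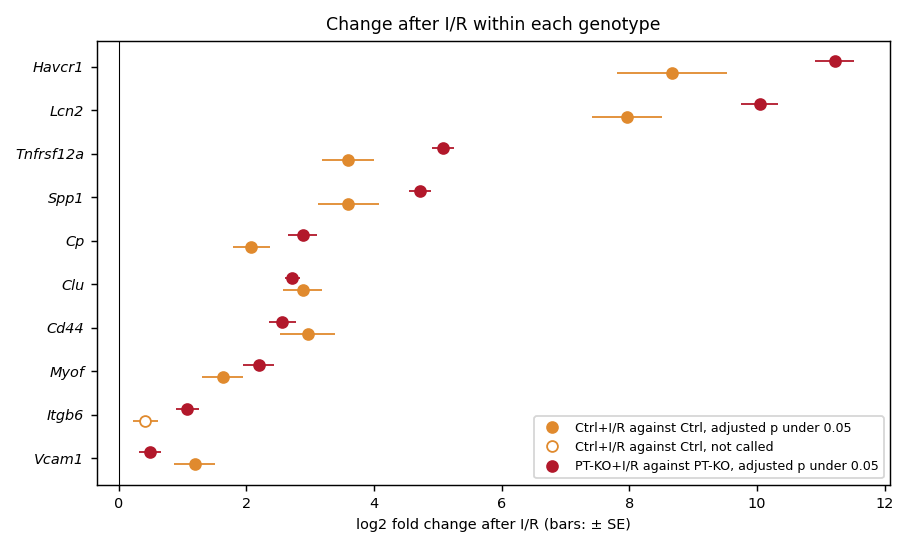
Log2 fold change of each member after I/R within control mice and within PT-KO mice, with bars of 1 SE on each side from edgeR fits of 6 libraries, and open symbols for values not called. The points run from 0.42 (Itgb6, control mice, not called) and 0.49 (Vcam1, PT-KO mice) to 8.67 and 11.22 for Havcr1.

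Whether the change after I/R differed by genotype was tested as the knockout by I/R interaction over all 12 libraries. It was called for 3 members, all larger in PT-KO mice, where 14.3% of the 16168 genes tested were called in that direction: Havcr1 by 2.55 (SE 0.84, edgeR adjusted p = 0.0368), Lcn2 by 2.08 (SE 0.65, edgeR adjusted p = 0.0298) and Tnfrsf12a by 1.501 (SE 0.46, edgeR adjusted p = 0.0284). Spp1 had 1.14 (SE 0.48, edgeR adjusted p = 0.0894) and Vcam1 -0.68 (SE 0.40, edgeR adjusted p = 0.212). With Xist as a covariate none of the 3 was called: Havcr1 had 1.82 (edgeR adjusted p = 0.294), Lcn2 1.63 (edgeR adjusted p = 0.276) and Tnfrsf12a 1.41 (edgeR adjusted p = 0.111). The direct differences between the genotypes after I/R use libraries with at most 11 counts of Xist. The number of members called was 0 without Ctrl+I/R replicate 1, PT-KO replicate 4 or PT-KO+I/R replicate 4, 1 without Ctrl replicate 2, PT-KO replicate 1 or PT-KO replicate 2, 2 without Ctrl replicate 1 or PT-KO+I/R replicate 3, 4 without Ctrl replicate 3, Ctrl+I/R replicate 4 or PT-KO+I/R replicate 2, and 5 without Ctrl+I/R replicate 2. Those 4 or 5 calls included Spp1 without Ctrl replicate 3, Vcam1 (smaller in PT-KO mice) without Ctrl+I/R replicate 4, Itgb6 without PT-KO+I/R replicate 2, and Spp1 and Itgb6 without Ctrl+I/R replicate 2. The share of all genes called larger in PT-KO mice was between 9.87 and 15.4% in these fits.

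**Figure D4:**
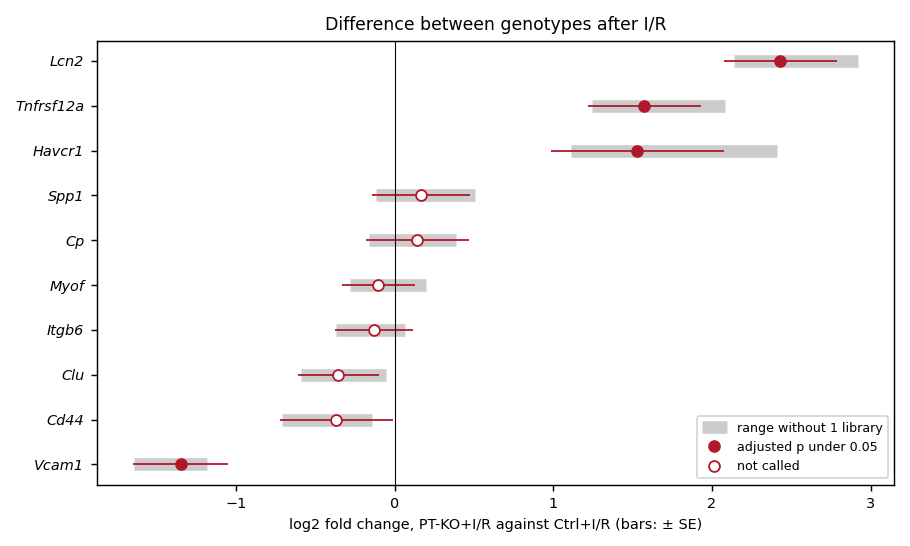
Log2 fold change of each member between PT-KO and control mice after I/R, with bars of 1 SE on each side from edgeR and grey bars for the range over the 6 fits that leave out 1 library. Lcn2, Tnfrsf12a and Havcr1 lie at 2.43, 1.57 and 1.53 and Vcam1 at -1.35, and the grey bars of these 4 do not reach 0.

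Single kidneys differed in a common way within their group. Ctrl+I/R replicate 2 had the highest level of all 10 members among the Ctrl+I/R libraries, and Ctrl+I/R replicate 4 the lowest of 9. Ctrl replicate 3 was lowest for 9 members in Ctrl and PT-KO+I/R replicate 2 for 9 in PT-KO+I/R. In Ctrl+I/R the highest library was between 1.71 times (Itgb6) and 5.52 times (Havcr1) the lowest, and in PT-KO+I/R between 1.03 times (Spp1) and 1.81 times (Itgb6). The spread of all 3 markers called higher in PT-KO+I/R was thus wider among Ctrl+I/R kidneys, a difference in spread that was not tested.

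Ligands, receptors and carriers that act with the members were taken as a list of 20 genes. In control mice 17 were tested after I/R, of which 6 rose and 4 fell (median log2 fold change 0.51), where 11.4% of all genes were called higher and 7.97% lower. In PT-KO mice 8 of 17 rose and 7 fell (median 0.42), where 32.9% of all genes were called higher and 32.7% lower. Between the genotypes after I/R, 3 of 18 were higher and 4 lower (median -0.25), shares no larger than the 22.5% and 24.4% of all genes. The 3 higher genes were integrin chains: Itgav, the partner of Itgb6, by 0.69 (SE 0.21, edgeR adjusted p = 0.0271), Itgb1 by 0.57 (SE 0.16, edgeR adjusted p = 0.0177) and Itgb3, which with alphav binds osteopontin, by 0.78 (SE 0.27, edgeR adjusted p = 0.0428). Besides Itga4, the lower genes were Itgb8 (-1.09, SE 0.14), the endocytic receptor Lrp2, also known as megalin (-1.42, SE 0.27), and the iron exporter Slc40a1 (-0.77, SE 0.19), with edgeR adjusted p of 8.4e-04, 0.0042 and 0.0121. Among the iron genes, Heph, a ferroxidase related to ceruloplasmin, had a log2 fold change after I/R of -0.97 in control mice (SE 0.27, edgeR adjusted p = 0.0468) and of -1.10 in PT-KO mice (SE 0.22, edgeR adjusted p = 0.0015). Heph thus fell where Cp rose.

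A list of 30 other genes of injured tubule went the same way as most members. In control mice 28 rose and none fell after I/R, with a median log2 fold change of 2.42, and in PT-KO mice 29 rose and 1, Sema5a, fell, with a median of 3.71, beside 11.4% and 32.9% of all genes called higher. Between the genotypes after I/R, 13 were higher in PT-KO+I/R, beside 22.5% of all genes, and 2, Ccl2 (-2.19) and Sema5a (-1.70), were lower, with a median of 0.91. The largest differences were those of the keratin Krt20 (5.02, SE 0.59, edgeR adjusted p = 6.5e-04), the scaffold protein Akap12 (4.44, SE 0.45, edgeR adjusted p = 3.8e-04), the AP-1 subunit Fosl1 (3.96, SE 0.49, edgeR adjusted p = 7.4e-04) and the cell cycle inhibitor Cdkn1a (3.09, SE 0.33, edgeR adjusted p = 4.5e-04). Each of these is larger than that of any of the 10 members.

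Mature proximal tubule genes went the other way. After I/R, 8 of 20 fell in control mice (median -0.94) and all 20 in PT-KO mice (median -2.21), and none rose in either, where 7.97% and 32.7% of all genes tested were called lower. Between the genotypes after I/R, 8 were lower in PT-KO+I/R, beside 24.4% of all genes, and 0 were higher (median -0.79), led by Gatm, the first enzyme of creatine synthesis (-4.30, SE 0.55), the lactate transporter Slc5a12 (-3.56, SE 0.39), the dicarboxylate transporter Slc13a3 (-2.77, SE 0.22) and the water channel Aqp1 (-2.56, SE 0.38), with edgeR adjusted p between 2.0e-04 and 0.0016. The sums of the 20 genes did not separate the genotypes, at 10098 to 21206 CPM in Ctrl+I/R and 11561 to 14332 CPM in PT-KO+I/R.

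How alike the members were was described by the Pearson correlation of log2(CPM + 1) over the 12 libraries. The libraries fall into groups with and without I/R, so these values mainly describe the groups and have no p. Over the 45 pairs of members r ran from 0.40 (Vcam1 and Tnfrsf12a) to 0.99 (Havcr1 and Lcn2), with a median of 0.93. Vcam1 had no r above 0.70 with another member. Of 11224 genes with a mean of at least 5 CPM, those nearest to the mean standardised profile of the 10 members were the tubulin gene Tuba1b (0.990), AI506816 (0.989), Ajuba (0.986), the filamin gene Flna (0.986) and the transcription factor Sox4 (0.984). The gene nearest to Lcn2 was Tpm4 (0.995), to Tnfrsf12a Ctsd (0.995), to Cd44 Cxcl1 (0.984) and to Vcam1 Psmb10 (0.982).

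**Figure D5:**
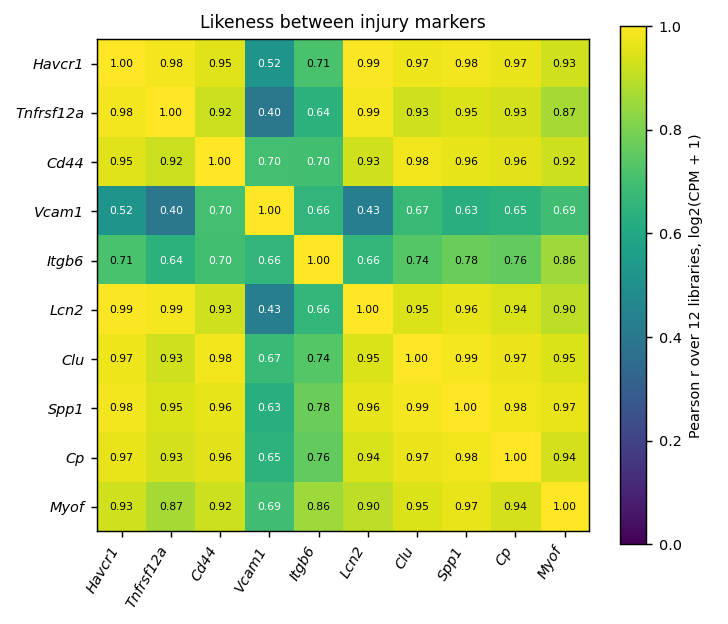
Pearson r between the members over the 12 libraries, computed on log2(CPM + 1), with colour from 0 to 1. Most pairs lie above 0.9, while the row of Vcam1 runs from 0.40 to 0.70 and that of Itgb6 from 0.64 to 0.86.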

How the data were processed

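RNA from mouse kidney cortex was sequenced on an Illumina platform, and the authors deposited 1 table of raw read counts per gene for 12 libraries. The submitters' processing notes name HISAT2 2.0.4 and the build mm10; the counting program, annotation and strand setting are not given in the sources used here. Of 55487 Ensembl identifiers, 55141 have a symbol in GENCODE M21 (GRCm38), which also gave positions and exon lengths. Groups follow the sample labels, except that the column of Ctrl replicate 3 matches no sample title (1, 2 and 4) and was given its group only. Replicates are taken as separate kidneys. Nothing in the labels names the mice, so p-values measure the spread between these libraries, which was 2.86 to 8.14 times that of counting error.

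Genes with few counts were removed by filterByExpr and libraries were scaled by TMM. Each comparison was fitted to its own 6 libraries, and the interaction to all 12, with glmQLFit and glmQLFTest of edgeR 4.0.16 (R 4.3.3). The program was tested on simulated counts beforehand. For 3 against 3 libraries an exact permutation test of log2(CPM + 1) cannot give a p below 0.1. Alternatives were total counts, no filter, DESeq2 1.42.0, all 12 libraries, Xist (over 1000 counts) as a covariate, replicate number as a block, another threshold (unadjusted p under 0.01 and an absolute log2 fold change above 1) and leaving out each library. The 10 members and all gene lists were chosen with earlier results of these data known. All members are named. From the list of partners any tested gene may be named, from the other lists of tubule genes up to 4 called genes with the largest change per comparison, and the 5 genes nearest to the members' mean profile. Ccl2, Sema5a, Dysf, Adgre1, S100a9, Mpo, Camp, Ltf and Ngp, and the nearest gene of single members, were named after their values were seen.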

Additional observations from a re-analysis of the deposited data

Results flagged for a closer look

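For 3 markers the change after I/R differed between the genotypes in the test of the interaction over all 12 libraries. The log2 fold change after I/R was larger in PT-KO mice than in control mice by 2.55 for Havcr1, by 2.08 for Lcn2 and by 1.501 for Tnfrsf12a, with edgeR adjusted p of 0.0368, 0.0298 and 0.0284. Of all 16168 genes tested, 14.3% were called in the same direction. In each of the 3 every PT-KO+I/R library was above every Ctrl+I/R library, as was so for 29.5% of the genes tested between these groups. The PT-KO and Ctrl libraries of the 3 overlapped. Havcr1 was called in 5, Lcn2 in 7 and Tnfrsf12a in 7 of the 12 fits without 1 library, and none of them with Xist as a covariate or with the replicate number as a block.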

How the results depend on the processing

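In the fits without 1 library, the number of members called ran from 7 to 9 for I/R in control mice, from 9 to 10 for I/R in PT-KO mice, from 3 to 5 for the genotypes after I/R, from 0 to 6 for the genotypes without I/R and from 0 to 5 for the interaction. The share of all genes called higher in these fits ran from 2.02 to 14.2%, 29.3 to 32.6%, 14.8 to 22.9%, 0 to 6.99% and 9.87 to 15.4%. For the last 3 the share called lower ran from 16.2 to 25.1%, 0 to 5.38% and 11.9 to 17.8%. For the genotypes without I/R, where the count was 0, it was 3 with no low-count filter, 2 with DESeq2 and 5 with the replicate block, all lower in PT-KO, where 0.931, 1.71 and 3.83% of all genes were called lower. For the interaction, with 3 calls, it was 4 with no low-count filter and 4 with DESeq2. In these fits 6.17 and 13.5% of all genes were called larger in PT-KO mice. With the Xist covariate and with the replicate block it was 0, and the shares of all genes were 8.89 and 8.63%. The block left 1 of 4 calls between the genotypes after I/R, that of Lcn2, with 4.48% of all genes called higher and 6.53% lower. Deviations from the group mean were little correlated between libraries of the same number (median of 12 pairs -0.022, range -0.188 to 0.184). With 3 libraries per group, this cannot decide whether the numbers pair the samples. The cause of these differences was not tested.

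Only values that were not called changed sign. Total counts in place of TMM took the median log2 fold change of all genes from -0.011 to 0.11 for I/R in control mice, from -0.0049 to -0.21 and from -0.012 to -0.14 for the genotypes after and without I/R, and from -0.017 to -0.10 for the interaction. With them, Spp1 (-0.050) and Cp (-0.065) turned between the genotypes after I/R, and Tnfrsf12a (-0.064) and Cd44 (-0.12) without it. In the fits without 1 library, the genotypes after I/R differed by -0.12 to 0.51 in Spp1, -0.16 to 0.39 in Cp, -0.28 to 0.20 in Myof and -0.37 to 0.066 in Itgb6, and those without I/R by -0.16 to 0.19 in Tnfrsf12a and -0.18 to 0.16 in Cd44. The interaction of Clu ran from -0.39 to 0.15. With the Xist covariate, Clu (0.14) and Myof (0.048) turned between the genotypes without I/R, and Myof (-0.15) in the interaction. With the replicate block, Cd44 (-0.30) turned between the genotypes without I/R. No member's change after I/R turned in either genotype under any alternative run. Havcr1, Lcn2 and Cd44 had under 5 CPM in every library without I/R, so differences between these libraries rest on few counts.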
